A study of Solanum lycopersicum with 16 samples.

Results

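The shoots of tomato seedlings kept under low pH were set against control shoots for 20 transcripts measured by SYBR Green qRT-PCR. The plants, of cultivar M82, were 3 weeks old and grew in potting medium. In the low pH group the medium was saturated with tap water at pH 4.2, and in the control group with water at pH 6.8, and shoots were collected 2 h and 24 h later. Low pH and control roots, and shoots given 200 mM NaCl (salt) or with submerged roots (flood), both at pH 6.8, were used where named. The comparison holds 4 of the 16 samples of the series, taken by their titles and source names, and 333 of its 1403 usable wells. These well counts include positions of the second plate that were not analysed here. Each sample is a column of wells from 1 of 2 plates, so that a group has 1 column for each plate and both times stand on every plate. The first plate carried SlIDD1 to SlIDD11 and the second SlIDD12 to SlIDD18, SlIDD-like1 and SlSTOP1, and ubiquitin, the only reference gene, was on both. The names on the second plate rest on a layout that had been matched to the authors' fold changes. For each transcript the question was how far its level in low pH shoots lay from that in control shoots of the same time.

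INDETERMINATE DOMAIN (IDD) proteins are plant transcription factors with a conserved set of zinc fingers, named after the maize gene INDETERMINATE1, which controls the switch to flowering. In Arabidopsis, members such as JACKDAW, MAGPIE and NUTCRACKER work with SHORT-ROOT and SCARECROW to pattern root tissue, others bind DELLA proteins in gibberellin signalling, and the SHOOT GRAVITROPISM5 branch sets shoot gravitropism and leaf angle. STOP1 is a related zinc finger protein best known for tolerance to protons and aluminium, partly through the malate transporter ALMT1.

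A Ct value is the PCR cycle at which the signal of a well passes a fixed threshold, so that a lower Ct means more transcript and 1 cycle stands for 1 log2 unit at full amplification efficiency. Low pH shoots had 73 usable target wells at 2 h and 76 at 24 h, and control shoots had 67 and 72, of 80 each. Every target had 2 to 4 wells in a group. The wells cannot be tied to plants, and the methods state 4 biological samples with 2 technical replicates, so that the tests overstate the evidence, with p too small, if wells come from a shared plant. Characteristics in the labels go against the titles for these samples: both low pH shoot samples are listed there as control plants, the second as roots, and the first plate as 2 h and the second as 24 h. Titles, source names and well rows were followed here. Rows are numbered 1 to 4 within a time. No marker of shoot tissue was among the targets, and in whole shoots fewer cells of a type and less RNA per cell cannot be told apart.

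Ubiquitin, the reference of every value, was compared first. At 2 h on the first plate it stood at 15.28, 14.92, 14.74 and 14.87 cycles in low pH shoots, against 16.12, 15.76 and 15.07 in control shoots, a mean difference of -0.70 (exact permutation test, two-sided, p = 0.0857). On the second plate it stood at 17.58, 17.05, 17.10 and 17.08 cycles in low pH shoots, against 4 wells from 15.42 to 16.34 in control shoots, a mean difference of 1.30 (exact p = 0.0286). The means thus lay in opposite directions on the plates at 2 h, with overlap on the first plate and none on the second. At 24 h the first plate gave 15.46, 15.81, 15.90 and 15.55 cycles in low pH shoots, against 14.23 and 14.67 in control shoots, 1.23 cycles later under low pH (exact p = 0.0667, the smallest that 4 wells against 2 allow). The second plate gave 16.77, 16.75, 16.97 and 17.11 cycles in low pH shoots, against 15.77, 16.21, 16.16 and 16.30 in control shoots, 0.79 cycles later under low pH (exact p = 0.0286). The wells at 17.11 and 16.30 cycles had irregular names and were kept. Adjusted over these 4 tests, p lay between 0.0571 and 0.0857. With both plates together the difference was 0.29 cycles at 2 h (exact p = 0.56) and 0.73 cycles at 24 h (exact p = 0.108). The pooled value at 24 h lay below that of either plate. Control shoots then had 2 wells of the first plate and 4 of the second, so that it also carries the offset between plates. With the plate as replicate block the difference was 0.30 cycles at 2 h (exact p = 0.376) and 1.01 cycles at 24 h (exact p = 0.000952).

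**Figure D1:**
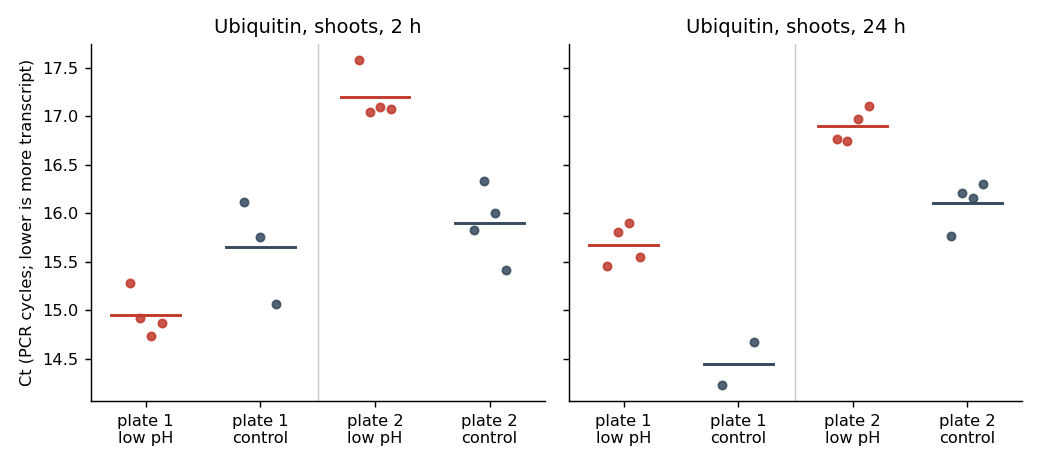
Ct of ubiquitin in single wells (points) with their mean (line), for low pH shoots and control shoots on each plate, at 2 h and 24 h. At 2 h low pH shoots lay 0.70 cycles below control shoots on the first plate and 1.30 above on the second, and at 24 h above them on both.

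Each fold change of low pH shoots over control shoots is therefore given with ubiquitin pooled over both plates and with ubiquitin of the same plate, and values of other comparisons rest on pooled ubiquitin where no reference is named. Changing from the pooled to the same-plate value lowers every log2 fold change of the first plate by 0.98 and raises those of the second by 1.02 at 2 h. At 24 h it raises them by 0.50 and 0.06. The median log2 fold change over the 20 targets was 1.09 at 2 h and 2.03 at 24 h with pooled ubiquitin, 0.61 and 2.19 with ubiquitin of the same plate, 0.81 and 1.29 with no reference, and 0.12 and 0.22 against the mean Ct of all targets. A mean of the targets as reference takes out any shift that the targets share. The small median against it is thus set by the method and tells nothing about a shared rise.

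Before any normalization, all 11 targets of the first plate had an earlier mean Ct in low pH shoots than in control shoots, at both times. Their mean Ct was 20.72 in low pH shoots and 22.18 in control shoots at 2 h, and 20.01 and 21.91 at 24 h. On the second plate 5 of 9 targets at 2 h and 6 of 9 at 24 h were earlier under low pH, with mean Ct of 22.04 in low pH shoots and 21.80 in control shoots at 2 h, and 21.95 and 22.02 at 24 h. Over both plates the wells of 9 targets were earlier without overlap and those of 3 later without overlap at 2 h, and 13 and 3 at 24 h. Wells with irregular names on the first plate, which fell to SlIDD9, SlIDD10 and SlIDD11 at 24 h in plate order, are left out of these counts, and with them the wells of SlIDD9 and SlIDD11 overlap.

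With ubiquitin as the reference, most of the family was higher in low pH shoots at 24 h. With pooled ubiquitin, 15 of 20 targets passed an adjusted p of 0.05 as higher (75.0%) and 1 as lower (5.00%), in limma's test with Benjamini-Hochberg adjustment over the 20 targets. With ubiquitin of the same plate 17 were higher (85.0%) and 2 lower (10.0%), and all 16 calls of the pooled reference were among them. Set against the mean Ct of all targets, which takes out any shared shift, 7 passed as higher and 4 as lower. At 2 h fewer moved: 5 were higher (25.0%) and 2 lower (10.0%) with pooled ubiquitin, and 7 higher (35.0%) and 1 lower (5.00%) with ubiquitin of the same plate, with 4 calls shared. Against the mean of all targets, again without any shared shift, the split at 2 h was 4 higher and 4 lower. SlIDD8, SlIDD11 and SlIDD15 as higher and SlIDD16 as lower passed at 2 h with each of 5 references, which were pooled ubiquitin, same-plate ubiquitin, the mean of all targets, the mean of the targets of the same plate and none. SlIDD6, SlIDD9 and SlIDD13 as higher and SlIDD14 as lower did so at 24 h. An error of the reference entered only with ubiquitin, so that p with a mean of targets leaves that error out.

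**Figure D2:**
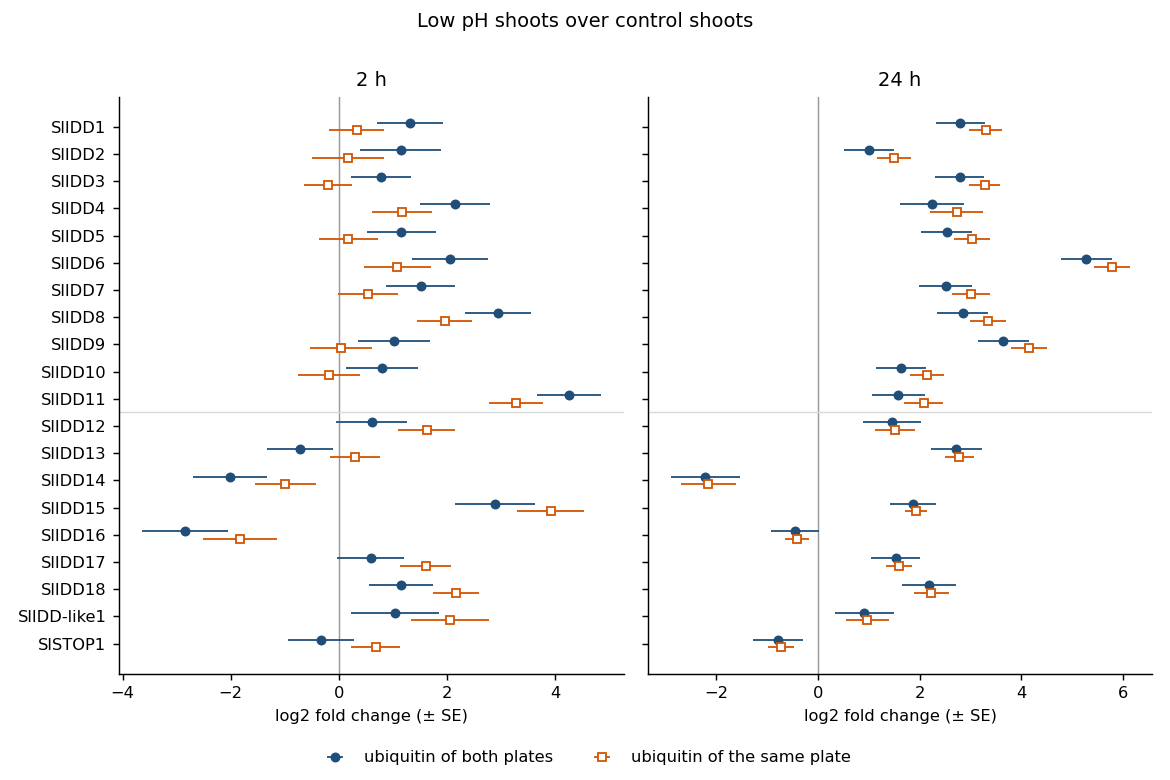
Log2 fold change of low pH shoots over control shoots (x axis, with SE) for the 20 targets at 2 h and 24 h, with ubiquitin of both plates (filled circles) and of the same plate (open squares). The grey line parts the targets of the first plate, above, from those of the second. SlIDD6 reached 5.28 at 24 h with pooled ubiquitin and 5.78 with same-plate ubiquitin, and SlIDD14 lay below 0 at both times.

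The SlIDD6 group held the extremes of both directions at 24 h. It contains SlIDD6, SlIDD7, SlIDD13 and SlIDD14, which group with Arabidopsis JACKDAW and BALDIBIS, regulators of root tissue patterning. At 24 h 3 of its 4 members were higher and 1 lower, a share of higher members no larger than the 75.0% over all targets, with a median log2 fold change of 2.62, against 2.03 over all targets. Ubiquitin of the same plate gave the same count, beside 85.0% over all targets. SlIDD6 (Solyc11g069240, chromosome 11) stood at 21.76, 21.95, 22.18 and 21.75 cycles in low pH shoots, against 26.10, 26.10, 27.13 and 26.49 in control shoots. The groups were more than 3 cycles apart. Its log2 fold change was 5.28 ± 0.50 (SE), or 38.8-fold (adjusted p = 6.49e-07), and 5.78 ± 0.35 with same-plate ubiquitin (adjusted p = 4.26e-05). It was the largest of the 20 at 24 h with either reference, and it kept its call with any well row left out, at 5.13 to 5.35.

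SlIDD6 was less clear at 2 h. Its wells stood at 23.06, 24.07, 22.38 and 23.63 cycles in low pH shoots, against 26.15, 24.10, 25.67 and 24.31 in control shoots, so that the latest low pH well lay just below the earliest control well. The log2 fold change was 2.06 ± 0.70 (adjusted p = 0.0248). With ubiquitin of the same plate it was 1.08 ± 0.62 (adjusted p = 0.193). Without well row 1 or 3 the pooled call was lost as well, with adjusted p up to 0.186.

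SlIDD7 (Solyc06g075250, chromosome 6) stood at 18.04, 17.69, 18.16 and 18.17 cycles in low pH shoots at 24 h, against 19.15, 20.16, 19.40 and 20.49 in control shoots. The control wells were spread over more than a cycle and lay above all low pH wells. The log2 fold change was 2.51 ± 0.53 (adjusted p = 0.000501), and 3.01 ± 0.38 with same-plate ubiquitin (adjusted p = 0.00028). At 2 h it stood at 18.65, 18.41, 18.45 and 18.33 cycles in low pH shoots, against 19.26, 21.10, 18.95 and 19.46 in control shoots. The log2 fold change then was 1.52 ± 0.64 and did not pass (adjusted p = 0.0694), and 0.54 ± 0.55 with same-plate ubiquitin.

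SlIDD13 (Solyc09g007550, chromosome 9) and SlIDD14 (Solyc10g084180, chromosome 10), both known from tomato for stem thickness and leaf shape, went apart at 24 h. SlIDD13 stood at 18.12, 17.88, 18.75 and 18.62 cycles in low pH shoots, against 20.13, 20.02, 20.40 and 20.78 in control shoots, with no overlap. With pooled ubiquitin its log2 fold change was 2.72 ± 0.50 (adjusted p = 0.000254), and 2.78 ± 0.29 with same-plate ubiquitin (adjusted p = 1.94e-06). At 2 h its raw order was the other way, at 21.23, 21.28 and 20.46 cycles in low pH shoots, against 19.27, 20.25, 20.10 and 20.33 in control shoots. Ubiquitin of that plate was later too, and the log2 fold change at 2 h was -0.72 ± 0.61 with pooled and 0.30 ± 0.47 with same-plate ubiquitin, neither past the threshold (adjusted p = 0.305 and 0.713).

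SlIDD14 was the 1 target called lower at both times with pooled ubiquitin. At 24 h it stood at 21.11, 22.77, 20.75 and 21.96 cycles in low pH shoots, against 19.51, 18.68 and 17.92 in control shoots, and every low pH well was later. The log2 fold change was -2.22 ± 0.68, a level of 0.215 of control (adjusted p = 0.00769), and -2.16 ± 0.54 with same-plate ubiquitin (adjusted p = 0.00325). The pooled call was lost without well row 4, at an adjusted p of 0.0676. At 2 h only 2 wells in each group had a value, 22.11 and 21.58 cycles in low pH shoots, against 19.65 and 19.44 in control shoots. Its log2 fold change at 2 h was -2.01 ± 0.69 with pooled ubiquitin (adjusted p = 0.0285) and -0.99 ± 0.56 with same-plate ubiquitin (adjusted p = 0.193), and the pooled call was lost without row 1, 2 or 3.

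The study's text reports close homology of SlIDD9 (Solyc06g072360, chromosome 6) with Arabidopsis STOP1. In the study's alignment, though, the zinc fingers of SlIDD9 lie nearer to those of SlIDD12 and SlIDD-like1 than to those of STOP1. SlIDD9 and SlSTOP1 are set side by side here because of the homology that the text reports. They carry the same locus name in the authors' fold sheet and were kept as separate assays here, with the locus of SlSTOP1 not settled. At 24 h SlIDD9 stood at 22.04, 22.62 and 22.11 cycles in low pH shoots, against 24.91, 25.20 and 25.42 in control shoots. A well with an irregular name was left out in each group, at 22.16 cycles in low pH shoots and 20.78 in control shoots, and the groups overlapped only with that control well, which was earlier than every low pH well. Without these wells the log2 fold change was 3.65 ± 0.50, or 12.6-fold (adjusted p = 3.62e-05), and with same-plate ubiquitin it was 4.15 ± 0.35 (adjusted p = 0.000169). With them it was 2.58 (adjusted p = 0.0359, pooled ubiquitin). At 2 h it stood at 23.12, 23.81, 23.67 and 23.55 cycles in low pH shoots, against 23.70 and 24.84 in control shoots, with overlap, and did not pass (1.02 ± 0.66, adjusted p = 0.213, and 0.04 ± 0.57 with same-plate ubiquitin).

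SlSTOP1 went the other way in raw Ct. At 24 h its wells stood at 21.54, 22.01, 22.21 and 22.22 cycles in low pH shoots, against 20.39, 20.53 and 20.51 in control shoots, later in every low pH well. Its log2 fold change was -0.79 ± 0.49 with pooled ubiquitin (adjusted p = 0.142) and -0.73 ± 0.26 with same-plate ubiquitin, where it passed as lower (adjusted p = 0.0162), a call lost when row 2, 3 or 4 was left out. The other references called it lower too, at -2.59 against the mean of all targets (adjusted p = 7.31e-06), -1.59 against that of the plate's targets (adjusted p = 0.000182) and -1.52 with none (adjusted p = 0.000154). At 2 h the wells stood at 22.01, 20.77 and 21.04 cycles in low pH shoots, against 20.50, 20.83, 20.55 and 20.74 in control shoots, and the groups overlapped. The log2 fold change at that time was -0.33 ± 0.61 with pooled and 0.68 ± 0.45 with same-plate ubiquitin, neither of which passed (adjusted p = 0.587 and 0.252).

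SlIDD11 (Solyc03g121660, chromosome 3) gave the largest rise at 2 h with pooled ubiquitin. It belongs to the SlIDD2 group with SlIDD2 and SlIDD10, kin of Arabidopsis IDD7 and IDD11. Its wells stood at 18.92, 18.95, 18.76 and 18.73 cycles in low pH shoots, against 22.70, 23.41 and 22.34 in control shoots. All low pH wells lay more than 3 cycles below the earliest control well, at a log2 fold change of 4.26 ± 0.59, or 19.2-fold (adjusted p = 2.03e-05), and 3.28 ± 0.50, or 9.70-fold, with same-plate ubiquitin (adjusted p = 0.00067). The pooled call held with any well row left out (4.02 to 4.56), and that with same-plate ubiquitin was lost without row 3 (adjusted p = 0.208).

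At 24 h SlIDD11 stood at 18.68, 18.22 and 17.95 cycles in low pH shoots, against 19.02 and 19.25 in control shoots. The wells left out for their names stood at 19.04 cycles in low pH shoots and 19.10 in control shoots, and with them the log2 fold change was 1.38 (adjusted p = 0.0244). In raw Ct, low pH wells were earlier by 0.55 cycles than at 2 h, and control wells by 3.68. With same-plate ubiquitin SlIDD11 was higher at 24 h than at 2 h in both groups, by 1.28 log2 units in low pH shoots and by 2.48 in control shoots. Its log2 fold change at 24 h was 1.58 ± 0.52, or 3.00-fold (adjusted p = 0.0114), and 2.08 ± 0.38 with same-plate ubiquitin (adjusted p = 0.00213), with the pooled call lost without row 2 or 3 (adjusted p up to 0.0746).

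With pooled ubiquitin, SlIDD10 passed at 24 h and not at 2 h, and SlIDD2 passed at neither time. SlIDD10 (Solyc01g099340, chromosome 1) stood at 19.47, 19.52 and 19.97 cycles in low pH shoots at 24 h, against 20.38, 20.70 and 20.60 in control shoots, a log2 fold change of 1.64 ± 0.49 (adjusted p = 0.00772) that did not pass without row 2 (adjusted p = 0.0753) and was 2.14 ± 0.33 with same-plate ubiquitin. SlIDD2 (Solyc06g062670, chromosome 6) stood at 19.97, 19.71, 20.22 and 19.75 cycles in low pH shoots, against 19.78, 20.08, 20.19 and 20.68 in control shoots, with overlapping wells. Its fold change on the log2 scale was 1.01 ± 0.49 (adjusted p = 0.0698) and 1.50 ± 0.33 with same-plate ubiquitin (adjusted p = 0.0083). At 2 h SlIDD10 stood at 20.60, 20.81, 19.60 and 19.04 cycles in low pH shoots, against 20.60, 20.29 and 20.71 in control shoots. SlIDD2 stood at 20.25, 19.90, 19.44 and 20.06 cycles in low pH shoots at 2 h, against 21.87, 22.05, 20.14 and 19.07 in control shoots. Both sets of wells overlapped. Neither SlIDD2 nor SlIDD10 passed at 2 h, at 1.15 ± 0.75 and 0.80 ± 0.66 (adjusted p = 0.213 and 0.294), or at 0.17 ± 0.67 and -0.18 ± 0.57 with same-plate ubiquitin. Against the mean of the targets of the same plate all 3 members of the group were lower at 24 h, at -1.62, -0.98 and -1.04 for SlIDD2, SlIDD10 and SlIDD11. Their direction thus depends on the reference, and this one takes out any shift shared by the plate's targets.

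SlIDD8 (Solyc07g053570, chromosome 7), kin of Arabidopsis MAGPIE and NUTCRACKER, was higher at both times with either form of ubiquitin. At 2 h it stood at 19.18, 19.30, 20.14 and 19.51 cycles in low pH shoots, against 22.73, 21.98 and 21.87 in control shoots. At 24 h it stood at 18.80, 19.01, 18.55 and 18.43 cycles in low pH shoots, against 21.23, 20.83 and 20.37 in control shoots. The groups were apart by more than a cycle each time. Its log2 fold change was 2.94 ± 0.61 at 2 h, or 7.70-fold (adjusted p = 0.00115), and 2.85 ± 0.50 at 24 h, or 7.19-fold (adjusted p = 0.000252). With same-plate ubiquitin it was 1.96 ± 0.51 at 2 h (adjusted p = 0.0134) and 3.34 ± 0.35 at 24 h (adjusted p = 0.000303). The pooled calls held with any well row left out, and the same-plate call at 2 h was lost without row 1 or 3 (adjusted p up to 0.208). At 24 h SlIDD8 was at 1.04 against the mean of all targets (adjusted p = 0.00729). Against the mean of the plate's targets it was at 0.22 and did not pass (adjusted p = 0.524).

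SlIDD4 (Solyc04g008500, chromosome 4), kin of Arabidopsis RAVEN, a partner of DELLA proteins, stood at 21.40, 21.24, 22.33 and 22.24 cycles in low pH shoots at 2 h, against 23.39, 24.77, 23.52 and 23.01 in control shoots. At 24 h it stood at 21.18, 22.59, 22.31 and 21.05 cycles in low pH shoots, against 23.48, 23.84 and 22.54 in control shoots, with 1 low pH well inside the range of the controls. Normalized to pooled ubiquitin, the log2 fold change was 2.15 ± 0.64 at 2 h (adjusted p = 0.0117) and 2.24 ± 0.63 at 24 h (adjusted p = 0.00425). With same-plate ubiquitin the value at 2 h was 1.17 ± 0.55 and did not pass (adjusted p = 0.12), and that at 24 h was 2.73 ± 0.52 (adjusted p = 0.000671). The pooled call at 2 h was also lost without row 1, 2 or 3, with adjusted p up to 0.0853.

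The SlIDD3 group holds SlIDD3 (Solyc09g074780, chromosome 9) and SlIDD15 (Solyc09g065670, also on chromosome 9), kin of Arabidopsis IDD12. SlIDD15 was higher at both times with either form of ubiquitin. At 2 h it stood at 22.46, 21.40, 21.32 and 21.39 cycles in low pH shoots, against 25.65, 24.08 and 23.04 in control shoots. At 24 h it stood at 21.71, 21.64, 21.58 and 21.76 cycles in low pH shoots, against 22.89, 22.86, 22.78 and 22.74 in control shoots. In raw Ct, low pH wells were alike at the 2 times, and the controls were earlier at 24 h by 1.44 cycles. Normalized to pooled ubiquitin, the log2 fold change was 2.90 ± 0.74 at 2 h, or 7.48-fold (adjusted p = 0.00537), and 1.87 ± 0.46 at 24 h, or 3.67-fold (adjusted p = 0.00351). With same-plate ubiquitin it was 3.92 ± 0.62 at 2 h, the largest of the 20 with that reference (adjusted p = 0.000319), and 1.93 ± 0.21 at 24 h (adjusted p = 1.94e-06). The call at 2 h was lost without row 3, with adjusted p of 0.111 with pooled and 0.0945 with same-plate ubiquitin. At 24 h SlIDD15 did not pass against the mean of all targets, at 0.07 (adjusted p = 0.652). It passed against the mean of the plate's targets, at 1.07 (adjusted p = 0.000139).

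With either form of ubiquitin SlIDD3 passed at 24 h and not at 2 h. Its wells at 24 h stood at 19.07, 18.88, 18.47 and 19.25 cycles in low pH shoots, against 21.15, 20.82, 20.89 and 21.02 in control shoots, a log2 fold change of 2.79 ± 0.48, or 6.89-fold (adjusted p = 0.000252), and 3.28 ± 0.31 with same-plate ubiquitin (adjusted p = 0.000761). At 2 h the wells did not overlap either, at 20.32, 20.03, 20.11 and 20.07 cycles in low pH shoots, against 20.78, 20.85, 20.46 and 20.45 in control shoots. The means were 20.14 and 20.63 cycles, which gave 0.78 ± 0.55 with pooled and -0.20 ± 0.45 with same-plate ubiquitin (adjusted p = 0.25 and 0.83). Against the mean of the plate's targets it was lower at 2 h, at -0.96 (adjusted p = 0.0301), and did not pass at 24 h, at 0.16 (adjusted p = 0.524).

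The SlIDD1 group is kin of the gibberellin regulators IDD1 and GAF1 of Arabidopsis. At 24 h all 3 members passed as higher with both forms of ubiquitin, beside 75.0% and 85.0% of all targets, with a median log2 fold change of 2.18 and 2.23, against 2.03 and 2.19 over all targets. SlIDD1 (Solyc02g085580, chromosome 2) stood at 21.57, 22.17, 22.21 and 21.49 cycles in low pH shoots, against 23.79, 23.88, 24.00 and 24.04 in control shoots. SlIDD17 (Solyc02g062940, chromosome 2) stood at 21.29, 21.10, 21.82 and 21.48 cycles in low pH shoots, against 21.96, 22.11, 22.39 and 22.43 in control shoots. SlIDD18 (Solyc04g080130, chromosome 4) stood at 25.03, 25.00, 25.27 and 25.20 cycles in low pH shoots, against 26.01, 26.15, 26.58 and 27.54 in control shoots. In none of the 3 did the groups overlap, with SlIDD17 the closest. Normalized to pooled ubiquitin, the log2 fold change was 2.80 ± 0.48 for SlIDD1, or 6.97-fold (adjusted p = 0.000252). It was 1.53 ± 0.48 for SlIDD17, or 2.89-fold (adjusted p = 0.0102, lost without row 2 at 0.0753). For SlIDD18 it was 2.18 ± 0.53, or 4.52-fold (adjusted p = 0.0018). Same-plate ubiquitin gave 3.30 ± 0.32, 1.59 ± 0.25 and 2.23 ± 0.34 for SlIDD1, SlIDD17 and SlIDD18. Against the mean of all targets 1 of the 3 passed, SlIDD1 at 1.00 (adjusted p = 0.00261), with SlIDD17 at -0.27 and SlIDD18 at 0.37.

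At 2 h none of the SlIDD1 group passed with pooled ubiquitin, at log2 fold changes of 1.31 ± 0.61 for SlIDD1, 0.59 ± 0.62 for SlIDD17 and 1.15 ± 0.59 for SlIDD18 (adjusted p = 0.0968, 0.386 and 0.133). SlIDD1 stood at 22.56, 22.57, 23.38 and 22.55 cycles in low pH shoots at that time, against 23.52, 24.33 and 23.51 in control shoots. SlIDD17 stood at 21.75, 21.09, 20.80 and 21.11 cycles in low pH shoots, against 21.21, 22.17 and 21.09 in control shoots, with wide overlap. SlIDD18 was earlier in each low pH well, at 24.34, 24.46 and 24.40 cycles, against 25.87, 24.96, 25.09 and 25.15 in control shoots. With same-plate ubiquitin the members of the second plate passed, SlIDD17 at 1.61 ± 0.47 (adjusted p = 0.0134) and SlIDD18 at 2.17 ± 0.43 (adjusted p = 0.000732), while SlIDD1 of the first plate fell short at 0.33 ± 0.51 (adjusted p = 0.713). Of these only the call of SlIDD18 held with each row left out.

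The SlIDD5 group is kin of the SHOOT GRAVITROPISM5 branch of Arabidopsis. SlIDD5 (Solyc05g054030, chromosome 5) is also called OBSCURAVENOSA (OBV), and the study's text counts the cultivar used, M82, among obv mutants. SlIDD5 is needed for the bundle sheath extensions of tomato leaf veins. After 24 h it stood at 18.72, 18.72, 19.02 and 19.02 cycles in low pH shoots, against 20.35, 20.22, 20.68 and 21.41 in control shoots, a log2 fold change of 2.53 ± 0.51, or 5.76-fold (adjusted p = 0.000466), and 3.03 ± 0.36 with same-plate ubiquitin (adjusted p = 0.000368). At 2 h the wells overlapped, at 19.42, 20.20, 20.06 and 19.14 cycles in low pH shoots, against 20.52, 21.31 and 19.92 in control shoots, and the value of 1.16 ± 0.64 did not pass (adjusted p = 0.152), nor did 0.18 ± 0.55 with same-plate ubiquitin (adjusted p = 0.844).

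SlIDD12 (Solyc01g005060, chromosome 1) stood at 22.44, 23.05, 23.39 and 24.09 cycles in low pH shoots at 24 h, against 23.96, 23.27, 24.14 and 24.52 in control shoots. These ranges overlapped widely. Normalized to pooled ubiquitin, the log2 fold change of 1.46 ± 0.57 passed (adjusted p = 0.024) but was lost without row 1, 2 or 3 (adjusted p up to 0.153), and with same-plate ubiquitin it was 1.52 ± 0.39 (adjusted p = 0.00291). At 2 h it stood at 23.05, 23.63, 22.20 and 22.19 cycles in low pH shoots, against 23.30, 23.65 and 22.34 in control shoots. At that time the log2 fold change was 0.61 ± 0.66 (adjusted p = 0.386) with pooled and 1.63 ± 0.53 (adjusted p = 0.0249) with same-plate ubiquitin. SlIDD-like1 (Solyc03g098070, chromosome 3), which sets the position of the stigma in tomato flowers, stood at 21.16 and 21.25 cycles in low pH shoots at 2 h, against 21.34, 23.41 and 21.14 in control shoots. After 24 h it stood at 21.78, 21.57 and 22.39 cycles in low pH shoots, against 23.06, 22.18, 21.58 and 21.55 in control shoots, and the groups overlapped at both times. It had log2 fold changes of 1.04 ± 0.82 at 2 h and 0.91 ± 0.58 at 24 h, neither past the threshold (adjusted p = 0.294 and 0.142). Same-plate ubiquitin gave 2.06 ± 0.72 and 0.97 ± 0.42 (adjusted p = 0.0433 and 0.0414), each lost with some row left out.

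SlIDD16 (Solyc08g063040, chromosome 8), linked to salt and drought tolerance through its tomato mutants, was the second target lower at 2 h. Its wells stood at 24.72, 21.67, 24.14 and 21.52 cycles in low pH shoots, against 20.34, 19.83, 19.68 and 19.68 in control shoots. Every low pH well was later, and the 4 fell into a late pair and an early pair. Its log2 fold change was -2.84 ± 0.80, a level of 0.139 of control (adjusted p = 0.00972), and -1.83 ± 0.69 with same-plate ubiquitin (adjusted p = 0.0472). Leaving out row 1 or 3, which hold the late pair, ended both calls, with adjusted p up to 0.149 and 0.467. At 24 h the wells stood at 22.09, 22.00, 22.45 and 22.33 cycles in low pH shoots, against 20.81, 21.00, 21.20 and 21.08 in control shoots, later in each low pH well. Its fold change on the log2 scale was -0.46 ± 0.47 and, with same-plate ubiquitin, -0.41 ± 0.23, and neither passed (adjusted p = 0.343 and 0.0947). The other 3 references called it lower, at -2.27 against the mean of all targets (adjusted p = 1.98e-06), -1.27 against that of the plate's targets (adjusted p = 0.000139) and -1.20 with none (adjusted p = 0.000123).

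**Figure D3:**
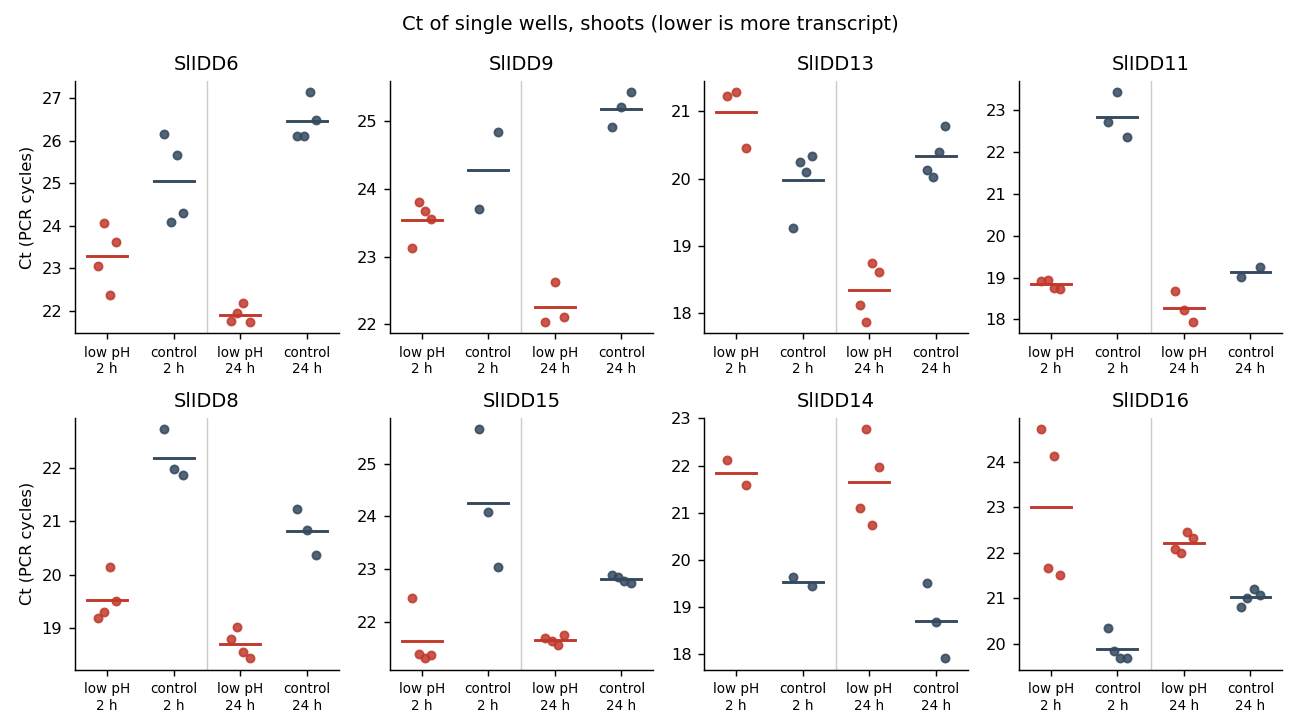
Ct of single wells (points) with their mean (line) for 8 targets in low pH shoots and control shoots at 2 h and 24 h, with a scale of its own for each target and wells with irregular names left out. SlIDD6, SlIDD9 and SlIDD13 lay lowest in low pH shoots at 24 h, the control wells of SlIDD11, SlIDD8 and SlIDD15 lay lower at 24 h than at 2 h, and SlIDD14 and SlIDD16 were later under low pH at both times.

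The change between 2 h and 24 h was tested as an interaction, the difference at 24 h minus that at 2 h. With pooled ubiquitin 5 of 20 targets passed (25.0%), 4 with a higher response at 24 h and 1 with a lower one, and with ubiquitin of the same plate 10 passed (50.0%), 8 higher and 2 lower. SlIDD3, SlIDD6, SlIDD9 and SlIDD13 passed with each of the 5 references. SlIDD13 changed by 3.44 ± 0.79 (adjusted p = 0.00244) and by 2.48 with same-plate ubiquitin. SlIDD6 changed by 3.22 ± 0.88 (adjusted p = 0.008) and by 4.70, SlIDD9 by 2.63 ± 0.83 (adjusted p = 0.016) and by 4.11, and SlIDD3 by 2.00 ± 0.72 (adjusted p = 0.0398) and by 3.48, in the same order of references. SlIDD11 was the call in the other direction, at -2.68 ± 0.81 (adjusted p = 0.0153), and at -1.20 with same-plate ubiquitin it did not pass (adjusted p = 0.119). With the wells of irregular names used in plate order 4 targets passed, and SlIDD9, at 1.56, did not (adjusted p = 0.428). Every one of these 5 pooled calls was lost without well row 2, where 0 of 20 targets passed. At an unadjusted p of 0.05 limma called 6 targets with all rows.

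In raw Ct these changes did not all sit in the low pH shoots. SlIDD13 was earlier at 24 h than at 2 h by 2.65 cycles in low pH shoots, while control shoots differed by 0.34. For SlIDD6, low pH shoots were earlier at 24 h by 1.38 cycles and control shoots later by 1.40, and for SlIDD9 low pH shoots were earlier by 1.28 and control shoots later by 0.90. SlIDD11 differed by -0.55 cycles in low pH shoots and by -3.68 in control shoots, so that most of its raw change lay in the controls. Relative to same-plate ubiquitin, SlIDD11 rose from 2 h to 24 h by 1.28 log2 units in low pH shoots and by 2.48 in control shoots. In the same order of groups SlIDD13 changed by 2.35 and -0.13, SlIDD6 by 2.10 and -2.60, and SlIDD9 by 2.01 and -2.11.

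Roots of the same treatment served to show where the shoot response differed. The test was again an interaction, the low pH difference of shoots minus that of roots at each time. Ubiquitin moved far in these roots on the first plate, to 14.55 ± 0.31 cycles in low pH roots and 16.50 ± 0.37 in control roots at 2 h (SD, n = 4 each), and to 13.74 ± 0.07 and 17.71 ± 0.18 at 24 h (n = 4 each). On the second plate it lay the other way at 2 h, at 17.49 ± 0.99 in low pH roots (n = 4) and 16.08 ± 0.30 in control roots (n = 3). At 24 h it stood there at 16.13 ± 0.34 (n = 3) and 16.09 ± 0.12 (n = 4). At 2 h 6 of 20 targets differed between tissues with pooled ubiquitin (30.0%) and 8 with ubiquitin of the same plate (40.0%), and the same 6 passed with each of the 5 references.

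SlIDD11 and SlIDD15 responded more in shoots at 2 h. The difference was 4.63 ± 1.08 for SlIDD11 (adjusted p = 0.00167), whose root response was -0.37 ± 0.88, and 3.56 ± 1.07 for SlIDD15 (adjusted p = 0.00981), whose root response was -0.66 ± 0.71. With same-plate ubiquitin the differences were 5.29 ± 0.86 and 2.87 ± 0.94. The root responses were then -2.02 ± 0.67 for SlIDD11 (adjusted p = 0.0256) and 1.05 ± 0.63 for SlIDD15 (adjusted p = 0.153), the latter with its sign changed. SlIDD12, SlIDD14, SlIDD9 and SlIDD3 responded less in shoots than in roots, by -5.94 ± 1.13, -4.46 ± 1.07, -4.19 ± 1.01 and -2.55 ± 0.88 (adjusted p = 0.000235, 0.00167, 0.00167 and 0.0278). With same-plate ubiquitin they did so by -6.64 ± 1.00, -5.15 ± 0.94, -3.52 ± 0.77 and -1.88 ± 0.59. SlIDD12 was the farthest apart, with a root response of 6.56 ± 0.89 beside 0.61 ± 0.66 in shoots. Its control roots had 3 late wells, at 28.15 to 30.99 cycles (SD 1.49). SlIDD14 was higher in low pH roots (2.45 ± 0.80) and lower in low pH shoots (-2.01 ± 0.69), and SlIDD9 reached 5.21 ± 0.76 in roots beside 1.02 ± 0.66 in shoots. SlIDD14 had 2 wells in control roots. SlIDD9 had 2 wells in low pH roots and late wells in control roots, at 28.32 to 29.57 cycles. Same-plate ubiquitin gave root responses of 8.27 ± 0.82 for SlIDD12, 4.16 ± 0.73 for SlIDD14 and 3.56 ± 0.50 for SlIDD9.

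At 24 h 11 targets differed between tissues with pooled ubiquitin (55.0%), all with a higher response in shoots, and 15 with ubiquitin of the same plate (75.0%), 13 higher and 2 lower. With no reference the split was 3 higher and 10 lower. SlIDD6, SlIDD13 and SlIDD15 passed as higher in shoots with each reference. SlIDD6 differed by 4.72 ± 0.82 (adjusted p = 6.96e-05), with a shoot response of 5.28 ± 0.50 and a root response of 0.56 ± 0.64. SlIDD13 differed by 4.27 ± 0.81 (adjusted p = 0.000139) and SlIDD15 by 3.86 ± 0.79 (adjusted p = 0.000311), with root responses of -1.54 ± 0.62 and -1.99 ± 0.63. With same-plate ubiquitin the differences of SlIDD6, SlIDD13 and SlIDD15 were 7.05 ± 0.46, 2.15 ± 0.43 and 1.74 ± 0.40. The root responses were then -1.28 ± 0.29 for SlIDD6 (adjusted p = 0.00219) and 0.63 ± 0.30 for SlIDD13 (adjusted p = 0.102). For SlIDD15 the same-plate shoot response of 1.93 ± 0.21 exceeded the difference of 1.74, so that its root response was positive. Each of these root responses had the other sign with pooled ubiquitin, so that the direction in roots depends on the reference. In roots at 24 h no target passed limma's adjusted test with pooled ubiquitin, 9 did at an unadjusted p of 0.05, and 11 passed the adjusted test with same-plate ubiquitin.

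**Figure D4:**
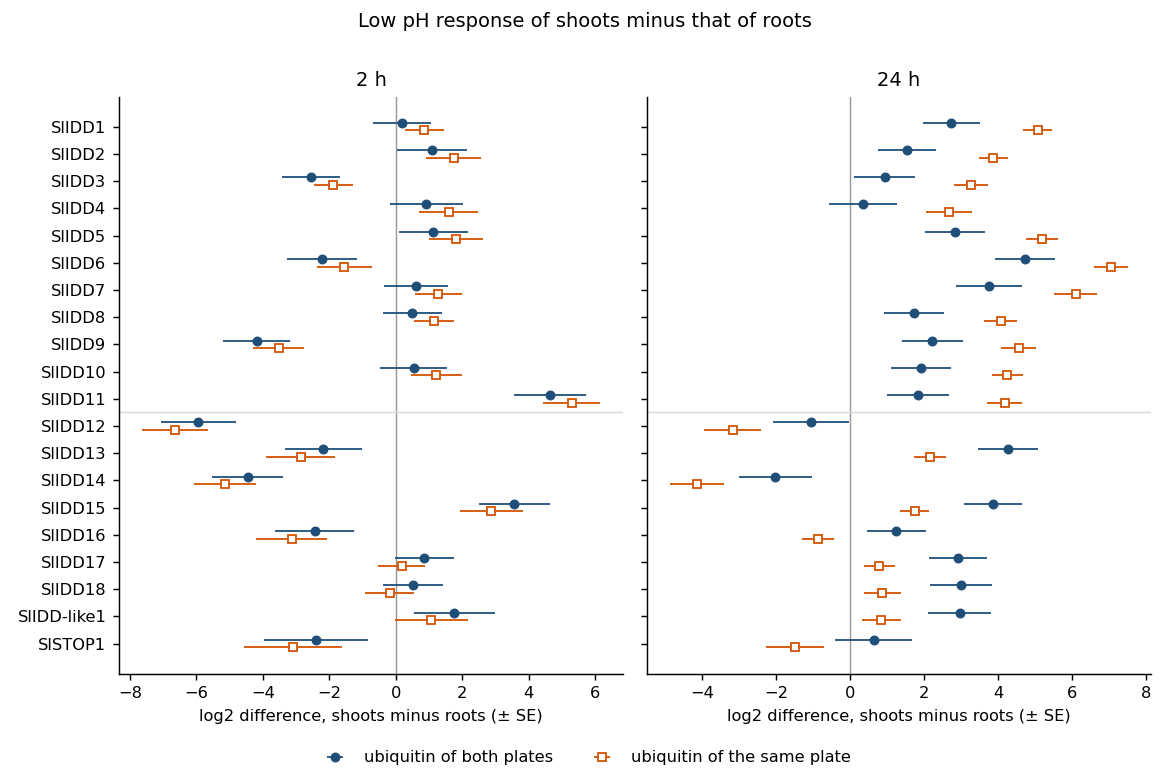
Low pH response of shoots minus that of roots on the log2 scale (x axis, with SE) for the 20 targets at 2 h and 24 h, with ubiquitin of both plates (filled circles) and of the same plate (open squares). The grey line parts the targets of the first plate, above, from those of the second. SlIDD12 lay at -5.94 and SlIDD11 at 4.63 at 2 h, and SlIDD6 at 4.72 at 24 h, with pooled ubiquitin.

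Low pH shoots were also set directly against salt shoots and flood shoots, without the control wells that the comparisons with control share. Against salt shoots 12 targets differed at 2 h with pooled ubiquitin (60.0%) and 3 with ubiquitin of the same plate (15.0%), and 17 (85.0%) and 11 (55.0%) at 24 h. SlIDD3 and SlIDD9 were higher under low pH than under salt at both times with each of the 5 references. At 24 h SlIDD9 lay 7.12 ± 0.44 above salt shoots and SlIDD3 4.18 ± 0.38. The salt wells of SlIDD9 were late, with a mean Ct of 29.48 cycles at 24 h (SD 0.94, n = 3). At 2 h their mean was 30.13 cycles with a wide spread (SD 2.59, n = 4). SlIDD9 stood at 3.65 ± 0.50 under low pH and at -3.47 ± 0.57 under salt relative to control, and SlIDD3 at 2.79 ± 0.48 under low pH and at -1.39 ± 0.44 under salt. SlIDD6 lay 4.12 ± 0.37 above salt shoots at 24 h, and SlIDD15, SlIDD16 and SlIDD18 differed by -2.18 ± 0.35, -2.26 ± 0.35 and -2.62 ± 0.38. These 4 passed with each reference as well. With same-plate ubiquitin SlIDD9 lay 6.49 ± 0.39 and SlIDD3 3.55 ± 0.32 above salt shoots at 24 h.

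Against flood shoots 3 targets differed at 2 h with pooled ubiquitin (15.0%) and 11 with ubiquitin of the same plate (55.0%), and 12 (60.0%) and 14 (70.0%) at 24 h. SlIDD16 and SlIDD18 were lower under low pH than under flood at both times with each reference, at -3.28 ± 0.83 and -2.47 ± 0.49 at 2 h and at -2.29 ± 0.37 and -3.01 ± 0.41 at 24 h. Same-plate ubiquitin gave -2.30 ± 0.72 and -1.50 ± 0.28 at 2 h, and -2.07 ± 0.24 and -2.79 ± 0.29 at 24 h. At 24 h SlIDD3, SlIDD6, SlIDD7, SlIDD8 and SlIDD13 were higher and SlIDD2, SlIDD17 and SlSTOP1 lower under low pH with each reference. SlIDD6 led the first set at 2.86 ± 0.36, and SlSTOP1, at -0.79 ± 0.49 under low pH and 1.39 ± 0.44 under flood relative to control, lay at -2.18 ± 0.37 in the direct comparison. SlIDD11 at 2 h stood at 4.26 ± 0.59 under low pH, 3.18 ± 0.40 under salt and 4.19 ± 0.39 under flood relative to control, values that share their control wells. Set directly, low pH differed by 1.08 ± 0.49 from salt (adjusted p = 0.0702) and by 0.07 ± 0.49 from flood (adjusted p = 0.886), and by -0.21 ± 0.26 and -0.91 ± 0.26 with same-plate ubiquitin (adjusted p = 0.56 and 0.0112).

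**Figure D5:**
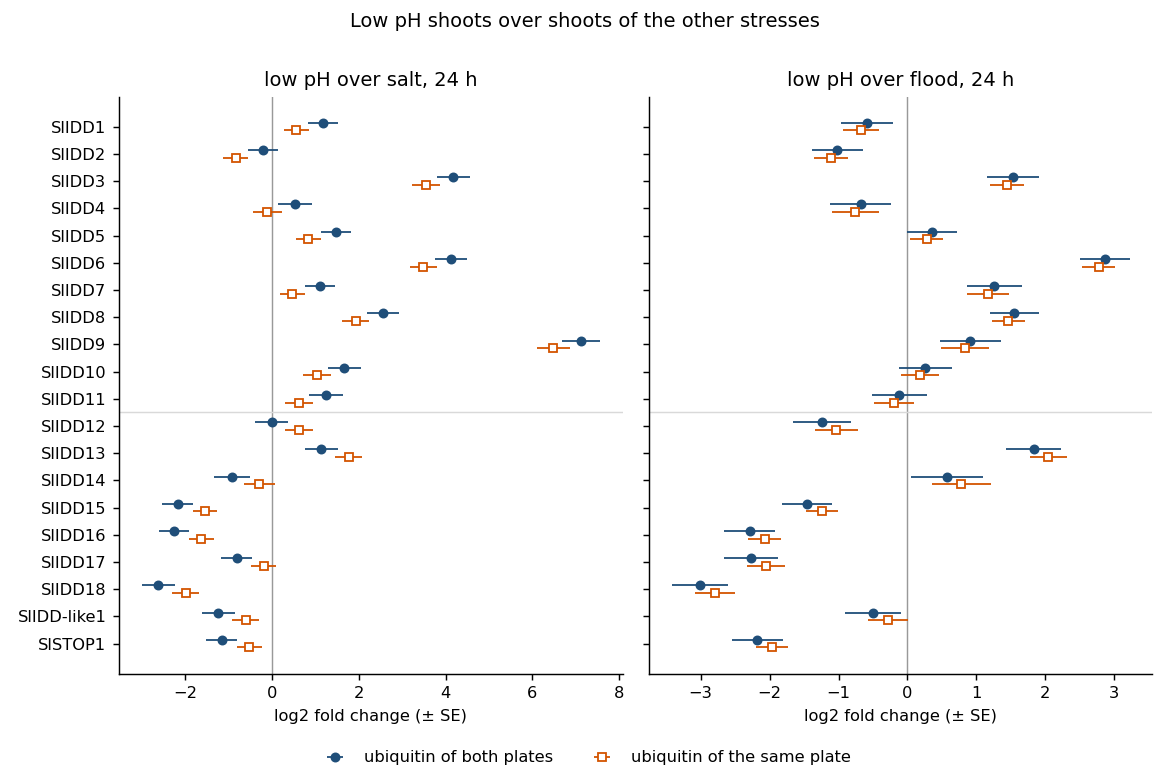
Log2 fold change of low pH shoots over salt shoots and over flood shoots at 24 h (x axis, with SE) for the 20 targets, with ubiquitin of both plates (filled circles) and of the same plate (open squares). The grey line parts the targets of the first plate, above, from those of the second. SlIDD9 lay at 7.12 over salt shoots, and SlIDD6 at 4.12 over salt and 2.86 over flood shoots, with pooled ubiquitin. The salt wells of SlIDD9 were late, with a mean Ct of 29.48 cycles.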

How the data were processed

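Ct (threshold cycle) values were called by the authors in CFX Maestro and deposited per well, without normalization. No value was taken from the deposited sheets of relative quantities and of the authors' fold changes. The upper well rows (A to D) were taken as 2 h and the lower (E to H) as 24 h. The sheet names the targets of the first plate. Those of the second, all 9, follow a layout matched earlier to the authors' fold changes, so that their identity rests on these and closeness to them is no independent evidence. Of 384 wells in these 4 samples 338 had a value, and 5 of those on the first plate were left out because their well names were irregular. Wells with irregular names on the second plate were kept, among them a ubiquitin well of each group at 24 h. The counts of 384 and 338 include second-plate positions that were not analysed. Through RefSeq accessions 19 of 20 targets were matched to a locus and chromosome.

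Each target well was set against the mean ubiquitin Ct of its group (minus delta Ct) and fitted with limma 3.58.1 in R 4.3.3, on the wells of the groups compared. The variance of those means entered the error of each target, with Satterthwaite degrees of freedom. Means of targets used as references were taken as known, so that p with them can be too small. With pooled ubiquitin that variance was taken over the wells of both plates and so includes the difference between plates. In low pH shoots at 2 h the SD was 1.22 cycles over both plates, against 0.23 and 0.25 within the first and second plate. Tests were two-sided, with Benjamini-Hochberg adjustment across the 20 targets and a threshold of 0.05. The fit was also run on simulated data with independent wells and no change of ubiquitin. That setting does not cover the ubiquitin differences between plates or wells from a shared plant. Summaries and plots used Python 3.11.15, pandas 2.3.3 and matplotlib 3.10.9. All 20 targets are named. Those past the threshold, those that the study's text names for low pH shoots and SlSTOP1 are given by well. The gene groups follow the study's phylogeny. Members, lists and tests were chosen with earlier results of these data known. Alternatives were other references, a replicate block, well rows left out, exact permutation tests and other treatments of irregular wells.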

Additional observations from a re-analysis of the deposited data

Results flagged for a closer look

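In low pH shoots at 2 h, 3 single wells lay far from the other 3 wells of their group. SlIDD1 had a well at 23.38 cycles with the others between 22.55 and 22.57, SlIDD15 a well at 22.46 with the others between 21.32 and 21.40, and ubiquitin on the second plate a well at 17.58 with the others between 17.05 and 17.10. In all 63 groups of wells were examined by Dixon's 95% limit, and chance alone marks about 1 in 20 groups.

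The low pH response differed between 24 h and 2 h for 5 targets in limma's interaction test with pooled ubiquitin. The change was 3.44 for SlIDD13, 3.22 for SlIDD6, 2.63 for SlIDD9, 2.00 for SlIDD3 and -2.68 for SlIDD11. With same-plate ubiquitin it was 2.48, 4.70, 4.11, 3.48 and -1.20 in the same order of targets, and only that of SlIDD11 did not pass (adjusted p = 0.119).

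Shoots and roots differed in their response for 6 targets at 2 h. The difference, shoots minus roots, was 4.63 for SlIDD11, 3.56 for SlIDD15, -2.55 for SlIDD3, -4.19 for SlIDD9, -4.46 for SlIDD14 and -5.94 for SlIDD12, and each also passed with same-plate ubiquitin. At 24 h it was 4.72 for SlIDD6, 4.27 for SlIDD13, 3.86 for SlIDD15, 3.75 for SlIDD7, 2.83 for SlIDD5, 2.73 for SlIDD1, 2.22 for SlIDD9 and 1.91 for SlIDD10, all of which passed with same-plate ubiquitin too. SlIDD18 (3.00), SlIDD-like1 (2.96) and SlIDD17 (2.91) passed with pooled ubiquitin, and at 0.87, 0.84 and 0.79 with same-plate ubiquitin they did not (adjusted p = 0.102, 0.118 and 0.0843).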

How the results depend on the processing

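Of 954 target values under alternatives, 762 kept direction and side of the threshold, 113 lost and 33 gained the call, and 46 changed sign. The cause was not tested. The mean of the targets of the same plate as the reference and the omission of irregular wells on both plates were chosen after seeing the data. The 7 calls at 2 h became 4 with the well row as replicate block (3 higher, 1 lower, with SlIDD4, SlIDD6 and SlIDD14 lost at adjusted p = 0.0516, 0.0928 and 0.0794), 12 with ubiquitin means taken as known, 0 in exact permutation tests (10 at an unadjusted p of 0.05, with 0.0286 the smallest p for 4 wells against 4), and 2 to 7 without single rows. The 16 calls at 24 h stayed at 16 with the replicate block and at 12 to 16 without single rows. The 5 changes between times became 10 with same-plate ubiquitin, 8 with ubiquitin means taken as known, 5 with the replicate block, 4 with irregular wells in plate order and 0 to 6 without single rows. No exact test was run for them. Rows carry no stated pairing. Against salt, same-plate ubiquitin gave 3 calls at 2 h and 11 at 24 h. Against flood at 2 h it gave 11, the mean of all targets 15, no reference 12 and the mean of the plate's targets 9. The last reference gave 10 for shoots against roots at 2 h. Ubiquitin differed by -0.70 (first plate) and 1.30 (second plate) at 2 h, by 0.79 (second plate) at 24 h, and by 0.30 and 1.01 at 2 h and 24 h with the plate as replicate block (exact p = 0.376 and 0.000952). Without single rows it lay between 0.10 and 0.49 at 2 h and between 0.51 and 0.87 at 24 h. Signs changed at 2 h with same-plate ubiquitin for SlIDD3 (-0.20), SlIDD10 (-0.18), SlIDD13 (0.30) and SlSTOP1 (0.68, and from -0.66 to 0.18 without single rows). With the mean of all targets they did so for SlIDD3 (-0.20), SlIDD10 (-0.17), SlIDD12 (-0.36) and SlIDD17 (-0.39). With the mean of the plate's targets they did so for SlIDD1 (-0.43), SlIDD2 (-0.59), SlIDD3 (-0.96), SlIDD5 (-0.58), SlIDD7 (-0.22), SlIDD9 (-0.72) and SlIDD10 (-0.94). At 24 h the mean of all targets turned SlIDD2 (-0.80), SlIDD10 (-0.16), SlIDD11 (-0.22), SlIDD12 (-0.34), SlIDD17 (-0.27) and SlIDD-like1 (-0.89). The mean of the plate's targets turned SlIDD2 (-1.62), SlIDD4 (-0.39), SlIDD5 (-0.10), SlIDD7 (-0.11), SlIDD10 (-0.98) and SlIDD11 (-1.04). Shoots minus roots at 24 h turned with no reference for SlIDD1 (-0.14), SlIDD5 (-0.03), SlIDD9 (-0.65) and SlIDD10 (-0.96), with the plate's targets for SlIDD9 (-0.01) and SlIDD10 (-0.32), and with all targets for SlIDD10 (-0.11). Low pH against salt turned with the plate's targets for SlIDD1 (-0.14), SlIDD6 (-0.68), SlIDD7 (-0.91) and SlIDD10 (-0.64) at 2 h, and for SlIDD1 (-1.08), SlIDD5 (-0.79), SlIDD7 (-1.17), SlIDD10 (-0.61), SlIDD11 (-1.01), SlIDD14 (0.20) and SlIDD17 (0.29) at 24 h. The 2 to 4 wells of a target and the 2 ubiquitin wells of control shoots on the first plate at 24 h limit the precision.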
